A study of Homo sapiens with 4 samples.

Results

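REST, its corepressor RCOR1 and 8 splicing or RNA-binding factors of the neural programme (SRRM3, SRRM4, PTBP1, PTBP2, CELF3, ELAVL3, ELAVL4 and RBFOX2) were examined in neuroendocrine prostate cancer (NEPC) cells treated with fluoxetine. These genes were taken by symbol, and all 10 were found among the 16376 genes of the deposited table. The cells were LASCPC-01, a human NEPC line driven by introduced MYCN and activated AKT1, which both groups carry, and the labels give the genotype as WT. RNA was sequenced from 2 libraries of cells treated with PBS and from 2 libraries of cells given fluoxetine, an antidepressant that blocks serotonin reuptake. Treatment was at 5 µM over 48 h as described for the experiment, while the labels read day 3, state no dose and carry the letters PP in the fluoxetine titles. No source says whether the libraries came from separate cultures, so the p-values measure the spread between these libraries, which may be technical. Gene expression is given as FPKM, which are fragments scaled to gene length in kilobases and to the mapped fragments of the library.

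REST is a zinc finger repressor that keeps neuronal genes silent outside the nervous system, through a DNA element called RE1. RCOR1 (CoREST) links REST to the histone demethylase KDM1A and to histone deacetylases. SRRM4 and SRRM3 promote the inclusion of neural microexons, and SRRM4 also redirects the splicing of REST itself to a truncated form. PTBP1 represses neural exons in most cell types and is replaced by PTBP2 as neurons form. CELF3, ELAVL3 and ELAVL4 are RNA-binding proteins found mostly in neurons, whereas RBFOX2 is also used by epithelial and muscle cells. In NEPC, loss of REST activity and gain of SRRM4 are known as part of the neuroendocrine programme.

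The RE1 element consists of a left arm and a right arm. The letters TTCAGCACC (left arm) and GGACAGC (right arm) were searched on both strands of the RefSeq promoter windows of GRCh38.p14, which run from 250 bases before to 50 bases after each gene start. The left arm was present in 0.376% of the 35116 windows and the right arm in 6.03%. Windows were given for 8 of the 10 genes, all but ELAVL3 and RBFOX2, and the left arm was in 0 of their 16 windows. The right arm was in 1 window each of REST, RCOR1 and SRRM3. Among neuronal genes known as REST targets, 5 of the 17 genes with a window held the left arm. The 30 bases around each match, and those around the right arm of SRRM3, are given here because REST is known to bind RE1. Binding to a single arm was not tested. The letters CAGCACC and GGACAGC with 2 bases between them were in 15 of the 35116 windows. They were in 0 of the 16 windows and, among these targets, only in GRIA2. The arms of SCG3 and UNC13A lie further apart. The matching arms are in capitals.
GRIA2 (chr4:157220383-157220412, minus strand): gcctTTCAGCACCgaGGACAGCgcctcgct
SYN1 (chrX:47620065-47620094, minus strand): cagcTTCAGCACCgcggacagtgccttcgc
SCG3 (chr15:51681507-51681536, plus strand): gaacTTCAGCACCcacagggcGGACAGCgc
UNC13A (chr19:17688336-17688365, plus strand): ttggTTCAGCACCgggggcgcGGACAGCgc
CELSR3 (chr3:48663009-48663038, minus strand): tctgTTCAGCACCaggagcaacgctcacgt
SRRM3 (chr7:76201885-76201914, minus strand): gcttgctgaaatgctGGACAGCgcaccgcc

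The 100 bases just before the most upstream gene start listed by RefSeq are also given for REST and PTBP1, which had clear levels in these cells, and for SRRM4 and CELF3, which were near 0. CG dinucleotides, where DNA methylation can act, are in capitals.
REST (chr4:56907800-56907899, plus strand): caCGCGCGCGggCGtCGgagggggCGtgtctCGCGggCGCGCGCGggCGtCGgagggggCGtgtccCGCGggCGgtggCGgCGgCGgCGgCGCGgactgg
PTBP1 (chr19:797352-797451, plus strand): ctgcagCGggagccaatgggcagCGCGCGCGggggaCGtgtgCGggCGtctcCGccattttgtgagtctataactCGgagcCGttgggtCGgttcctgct
SRRM4 (chr12:118981441-118981540, plus strand): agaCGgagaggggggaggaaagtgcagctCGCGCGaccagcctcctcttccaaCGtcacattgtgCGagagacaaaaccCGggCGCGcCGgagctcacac
CELF3 (chr1:151716804-151716903, minus strand): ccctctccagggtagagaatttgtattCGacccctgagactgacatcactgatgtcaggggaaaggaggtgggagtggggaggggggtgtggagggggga

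These 100 bases held 25 CG in REST, 12 in PTBP1, 10 in SRRM4 and 1 in CELF3. Over the whole windows at these starts, the CG content relative to base composition was 1.08 in REST, 0.861 in PTBP1, 0.782 in SRRM4 and 0.410 in CELF3, where the median of all windows was 0.579. A further window downstream had 0.981 in REST and 1.18 in PTBP1, so the order of these genes depended on the start. The window of SRRM4, a gene near 0 in these cells, was thus richer in CG than the median window, and that of CELF3 was poorer.

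Depth was even across the libraries. The number of mapped fragments by which the FPKM had been divided, solved from the values, was between 32873603 and 34831389, so that 1 read in a gene of 1 kilobase was worth 0.0287 to 0.0304 FPKM. Replicate libraries differed by more than counting noise (chi-square per degree of freedom of 9.55 for PBS and 11.6 for fluoxetine). Of 7 neuroendocrine markers, 4 had a mean of at least 1 FPKM, among them NCAM1 at 44.3 to 52.0 FPKM and INSM1 at 21.7 to 24.2 FPKM, while CHGA and CHGB were below 0.1 FPKM. Of the luminal markers, KRT8 and KRT18 were high. The fibroblast markers summed to 1.97 to 3.14 FPKM, mostly COL1A1, and the leukocyte markers to 2.76 to 3.99 FPKM, mostly CD68.

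The 10 genes fell into 5 with clear levels and 5 close to 0. In descending order of mean FPKM over the 4 libraries, they were PTBP1 (174), RBFOX2 (18.6), RCOR1 (15.8), REST (6.60), PTBP2 (6.12), ELAVL3 (0.0576), CELF3 (0.0494), SRRM3 (0.00778), ELAVL4 (0.00618) and SRRM4 (0.00521). REST and PTBP2 overlapped in range, as did ELAVL3 and CELF3, and SRRM3, ELAVL4 and SRRM4 could not be ordered. The gap between PTBP2 and ELAVL3 was 106-fold. Among all genes in the table, PTBP1 was at percentile 98.2 of mean FPKM and REST at percentile 57.8, whereas SRRM4 was at percentile 6.92.

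**Figure D1:**
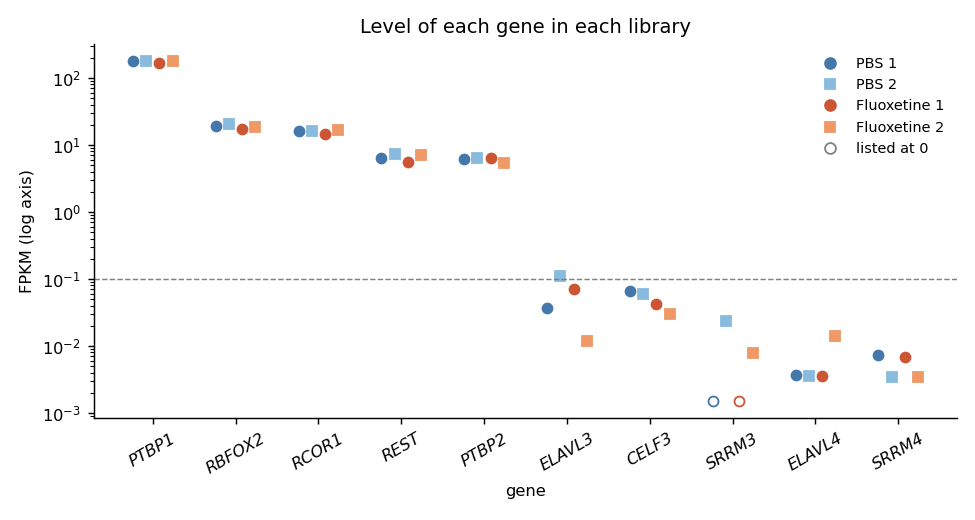
FPKM (log axis) of the 10 genes in each of the 4 libraries, with PBS in blue and fluoxetine in orange, circles for replicate 1 and squares for replicate 2, and open symbols near the bottom for libraries listed at 0. The dashed line is the mean of 0.1 FPKM required for testing, and 5 genes lie well above it while 5 have means below it.

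To ask whether fluoxetine changed these genes, all genes with a mean of at least 0.1 FPKM were compared with limma on log2(FPKM + 0.1). The 5 genes with clear levels were tested and all had a lower mean with fluoxetine, but 0 had an adjusted p under 0.05 and 0 an unadjusted p under 0.05. Adjusted p under 0.05 was reached by 0.237% of the 12663 tested genes (30 genes, 27 lower and 3 higher), and unadjusted p under 0.05 by 1078. With limma voom on solved reads, 7 of the 10 genes were tested, and the count with an adjusted p under 0.05 was also 0. In bulk RNA, fewer cells expressing a gene and less RNA of it per cell cannot be told apart.

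REST lies at 56907876 to 56966678 on chromosome 4 (GRCh38, GENCODE 29, as are all gene locations given here). It measured 6.41 and 7.31 FPKM under PBS and 5.55 and 7.13 FPKM under fluoxetine. These ranges overlapped, and fluoxetine replicate 1 was the lowest library. The means were 6.86 ± 0.635 FPKM under PBS and 6.34 ± 1.12 FPKM under fluoxetine (SD, n = 2 each, as for all means given here). The log2 fold change was -0.12 (standard error 0.13, 95% interval -0.39 to 0.16, adjusted p = 0.784 from limma). The interval spans from 0.761-fold to 1.11-fold of the PBS level. These values rest on 1574 to 2071 reads per library. They sum all transcripts of the gene, so the full-length and truncated forms of REST were not separated, and 23 exonic bases are shared with NOA1 on the opposite strand.

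RCOR1, on chromosome 14 from 102592661 to 102730576, had 15.9 and 16.3 FPKM with PBS and 14.6 and 16.4 FPKM with fluoxetine. The groups overlapped, since the fluoxetine libraries were both the lowest and the highest of the 4. The log2 fold change was -0.06 (standard error 0.09, 95% interval -0.25 to 0.13, adjusted p = 0.851 from limma).

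PTBP1, on chromosome 19 from 797075 to 812327, was the most abundant of the 10 genes. It had 176.6 and 178 FPKM with PBS and 166 and 176.1 FPKM with fluoxetine. The fluoxetine values were both under the PBS values, by a margin smaller than the spread between the fluoxetine libraries. The log2 fold change was -0.05 (standard error 0.07, 95% interval -0.21 to 0.11, adjusted p = 0.839 from limma).

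PTBP2, on chromosome 1 from 96721665 to 96823738, is the paralogue that takes over from PTBP1 in neurons. It had 6.10 and 6.46 FPKM with PBS and 6.47 and 5.44 FPKM with fluoxetine. The fluoxetine libraries were the highest and the lowest of the 4, and the log2 fold change was -0.08 (standard error 0.11, 95% interval -0.32 to 0.16, adjusted p = 0.841 from limma). PTBP1 exceeded PTBP2 by 28.9-fold and 27.6-fold in the PBS libraries and by 25.7-fold and 32.3-fold in the fluoxetine libraries. This ratio, which does not depend on how a library was scaled, overlapped between the groups (two-sided exact permutation test, p = 1.0, where the smallest p possible with 2 against 2 is 0.333). The ratio of ELAVL3 to ELAVL4 also overlapped (exact permutation p = 0.667, adjusted over both pairs 1.0), but rested on 1 to 4 ELAVL4 reads per library. No SRRM4 to SRRM3 ratio was formed because SRRM3 was listed at 0 in 2 libraries.

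RBFOX2, on chromosome 22 from 35738736 to 36028425, had 18.8 and 20.3 FPKM with PBS and 17.0 and 18.2 FPKM with fluoxetine, so that the fluoxetine values were both under the PBS values. It had the largest estimate of the 5 genes, a log2 fold change of -0.15 (standard error 0.08, 95% interval -0.33 to 0.03), which did not pass the test (adjusted p = 0.613 from limma). Of the 5 tested genes, RBFOX2 and PTBP1 thus had no overlap with fluoxetine lower, against 24.8% of all genes tested, and 0 had no overlap with fluoxetine higher, against 16.7% of all genes tested. The median log2 fold change was -0.08 over the 5 genes and -0.02 over all genes tested.

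**Figure D2:**
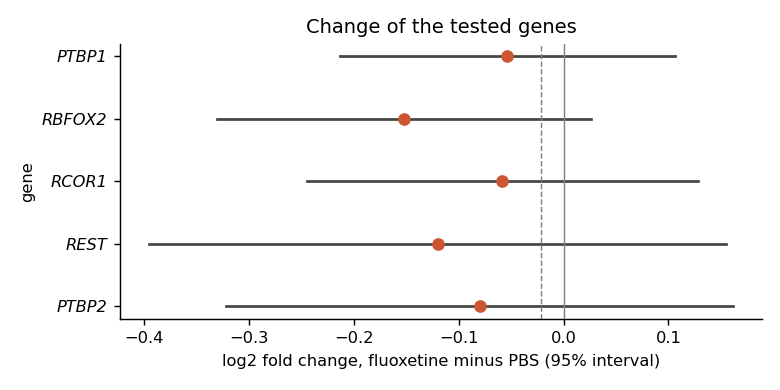
Log2 fold change (fluoxetine minus PBS, on the log2(FPKM + 0.1) scale) of the 5 tested genes, with points for the limma estimate and bars for its 95% interval from 2 against 2 libraries. The solid line is 0 and the dashed line the median of all genes tested at -0.02, and every interval includes 0.

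These differences changed with the libraries included. Fluoxetine replicate 1 was the lowest of the 4 libraries for REST, RCOR1, PTBP1 and RBFOX2, as it was for 33.0% of all genes tested, and fluoxetine replicate 2 was the lowest for PTBP2. Without fluoxetine replicate 1, the log2 fold change was 0.059 for REST and 0.025 for RCOR1, and it came to -0.01 for PTBP1 and -0.10 for RBFOX2. PTBP2 went the other way, to -0.20 without fluoxetine replicate 1 and to 0.042 without fluoxetine replicate 2, whereas REST came to -0.30 without the latter. Leaving out PBS replicate 2 also moved the estimates toward 0, to -0.027 for REST, -0.039 for PTBP2 and -0.097 for RBFOX2, while leaving out PBS replicate 1 gave -0.21 for REST, -0.12 for PTBP2 and -0.21 for RBFOX2. Fluoxetine replicate 1 also had lower values in longer genes, with a correlation across genes of -0.28 between its deviation and log2 gene length, where PBS replicate 2 had 0.19 (genes are not independent replicates). With the length trend of each library removed, the log2 fold changes were -0.03 for REST, -0.01 for RCOR1, -0.03 for PTBP1, -0.07 for PTBP2 and -0.05 for RBFOX2.

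**Figure D3:**
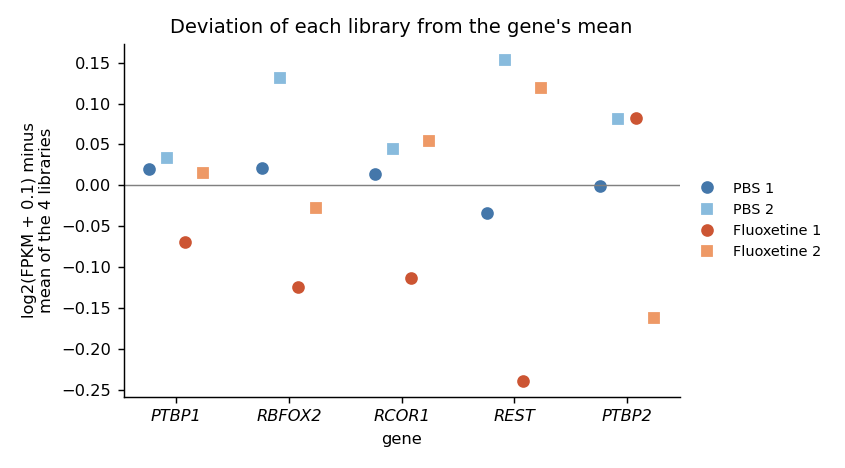
Deviation of each library from the mean of the 4 libraries, in log2(FPKM + 0.1), for the 5 tested genes (PBS in blue, fluoxetine in orange, circles for replicate 1 and squares for replicate 2). Fluoxetine replicate 1 is the lowest point for 4 genes, and for REST fluoxetine replicate 2 lies above PBS replicate 1.

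The 3 genes whose profile over the 4 libraries was closest to that of REST, out of 10579 others with a mean of at least 1 FPKM, were ANKRD18B, EPG5 and IL6R. Their centred log2 values differed from those of REST by 0.0052, 0.011 and 0.014 on average. Each had its lowest value in fluoxetine replicate 1 and its highest in PBS replicate 2, with a log2 fold change between -0.14 and -0.12. This likeness rests on 4 libraries.

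The other 5 genes had a mean below 0.1 FPKM and were not tested. The reads given for them are the smallest whole numbers that produce the FPKM, and their Poisson intervals (95%, exact) cover counting error only.

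SRRM4, on chromosome 12 from 118981495 to 119163051, had 0.00722 and 0.00341 FPKM with PBS and 0.00682 and 0.00341 FPKM with fluoxetine. In each group this amounted to 2 reads in replicate 1 and 1 read in replicate 2, and an interval on 2 reads runs from 0.242 to 7.22 reads. SRRM4 was at or near the limit of detection in every library, so no change of it could be seen at this depth.

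SRRM3, on chromosome 7 from 76201900 to 76287288, was listed at 0 in PBS replicate 1 and fluoxetine replicate 1. It had 0.0234 FPKM (3 reads) in PBS replicate 2 and 0.00777 FPKM (1 read) in fluoxetine replicate 2. A count of 0 allows up to 3 reads as a one-sided 95% limit (3.69 reads as the upper end of the two-sided exact interval), and 3 reads are 0.0247 FPKM in PBS replicate 1 and 0.0233 FPKM in fluoxetine replicate 1, so the 4 libraries could not be told apart.

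CELF3, on chromosome 1 from 151702404 to 151716814, had 0.0663 and 0.0597 FPKM with PBS and 0.0417 and 0.0298 FPKM with fluoxetine, so that the fluoxetine values were both under the PBS values. The PBS libraries held 21 and 20 reads and the fluoxetine libraries 14 and 10, and the intervals overlapped, from 12.2 to 30.9 reads for PBS replicate 2 and from 7.65 to 23.5 reads for fluoxetine replicate 1. With no filter on low values, the log2 fold change was -0.26 (adjusted p = 0.665 from limma), and limma voom on the solved reads gave -0.81 (adjusted p = 0.734).

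ELAVL3, on chromosome 19 from 11451326 to 11481046, had 0.0371 and 0.111 FPKM with PBS and 0.0702 and 0.0117 FPKM with fluoxetine. The groups overlapped, and the libraries held 6, 19, 12 and 2 reads in that order. ELAVL3 and a further protein-coding gene model on the same strand share 256 exonic bases in GENCODE 29, which is 5.38% of the exon length of ELAVL3.

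ELAVL4, on chromosome 1 from 50048014 to 50203786, had 0.00371 and 0.00351 FPKM with PBS and 0.00350 and 0.0140 FPKM with fluoxetine. It had 1 read in each of 3 libraries and 4 reads in fluoxetine replicate 2, whose interval of 1.09 to 10.2 reads overlapped that of a single read (0.0253 to 5.57). Among the 5 genes near 0, CELF3 was thus the only one without overlap between the groups. Of all genes tested, 24.8% had no overlap with fluoxetine lower and 16.7% had none with fluoxetine higher.

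Each of these factors belongs to a family of paralogues, which showed whether a low level was shared by its relatives. Among the ELAVL proteins, which bind AU-rich RNA, the ubiquitous ELAVL1 made up 97.5% of the summed FPKM of the family, and the neuronal ELAVL2, at 0.849 to 1.17 FPKM, exceeded ELAVL3 and ELAVL4 in every library. Among the CELF proteins, CELF1 made up 67.0% and CELF2 32.6%, and CELF3 0.154%. CELF4, CELF5 and CELF6 were also near 0, with means of 0.0049, 0.0050 and 0.0522 FPKM beside 0.0494 FPKM for CELF3. SRRM1 and SRRM2, general splicing coactivators, had means of 36.1 and 125 FPKM, against under 0.01 FPKM for SRRM3 and SRRM4.

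In the PTBP family, PTBP1 made up 83.5%, PTBP3 13.5% and PTBP2 2.93% of the summed FPKM. RBFOX2 made up 79.2% of its family and RBFOX1, otherwise mostly of neurons and muscle, 20.7%, at 4.59 to 5.24 FPKM. RBFOX3 (NeuN), a marker of mature neurons, was at most 0.0257 FPKM. Among the CoREST proteins, RCOR2 had the highest level at 32.6 to 37.5 FPKM and made up 61.8% of the family, RCOR1 made up 28.2%, with RCOR3 lower at 5.61 FPKM. Reads shared between near-identical stretches of paralogues may have been assigned unevenly, and how they were handled is not given in the sources used here.

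The corepressors that act with REST were all expressed. Of 21 listed genes other than RCOR1, all 21 were tested and 0 had an adjusted p under 0.05 with limma (1 had an unadjusted p under 0.05), with 13 below 0 and a median log2 fold change of -0.01. Groups did not overlap for 4 lower and 3 higher genes, where these shares over all genes tested were 24.8% and 16.7%. KDM1A (LSD1), the demethylase bound by CoREST, averaged 85.8 ± 0.938 FPKM under PBS and 89.2 ± 0.466 FPKM under fluoxetine, for a log2 fold change of 0.06 (adjusted p = 0.818 from limma). SMARCA4, a chromatin remodelling ATPase, averaged 89.5 FPKM over the 4 libraries, with a log2 fold change of -0.02. RCOR3, RCOR2 and SIN3A, a scaffold for histone deacetylases, had log2 fold changes of -0.19, -0.17 and -0.16, with adjusted p between 0.552 and 0.624 from limma.

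Neuronal genes known as REST targets were mostly near 0. Of the 29 found, 20 had a mean below 0.1 FPKM, and 0 of the 9 tested had an adjusted p under 0.05 with limma (1 had an unadjusted p under 0.05, median log2 fold change -0.06). Of the 5 whose promoter window held the left arm of RE1, 4 were below 0.1 FPKM. These were GRIA2, a glutamate receptor subunit, at 0.00976 to 0.0293 FPKM, SYN1, a synaptic vesicle protein, at 0 to 0.00896 FPKM, SCG3, a granule protein, at 0.0182 to 0.0674 FPKM, and UNC13A, which primes vesicles, at 0.0365 to 0.0804 FPKM. The other was CELSR3, an adhesion receptor, at 0.910 to 1.12 FPKM. The 12 targets whose windows lacked the left arm included 7 below 0.1 FPKM. The medians of the mean FPKM were 0.0373 with the arm and 0.0412 without it. Only the exact letters within these windows were searched, so an RE1 with other letters or elsewhere was not covered. A further 12 targets had no window.

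Some targets were well expressed. NEFH, a neurofilament subunit, averaged 91.6 ± 6.36 FPKM under PBS and 86.9 ± 1.52 FPKM under fluoxetine, and RAB3A, a vesicle GTPase, had 33.6 ± 1.31 and 33.0 ± 0.982 FPKM. STMN3, a microtubule regulator, had 1.21 ± 0.133 and 1.55 ± 0.192 FPKM, a log2 fold change of 0.32 (adjusted p = 0.613 from limma).

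**Figure D4:**
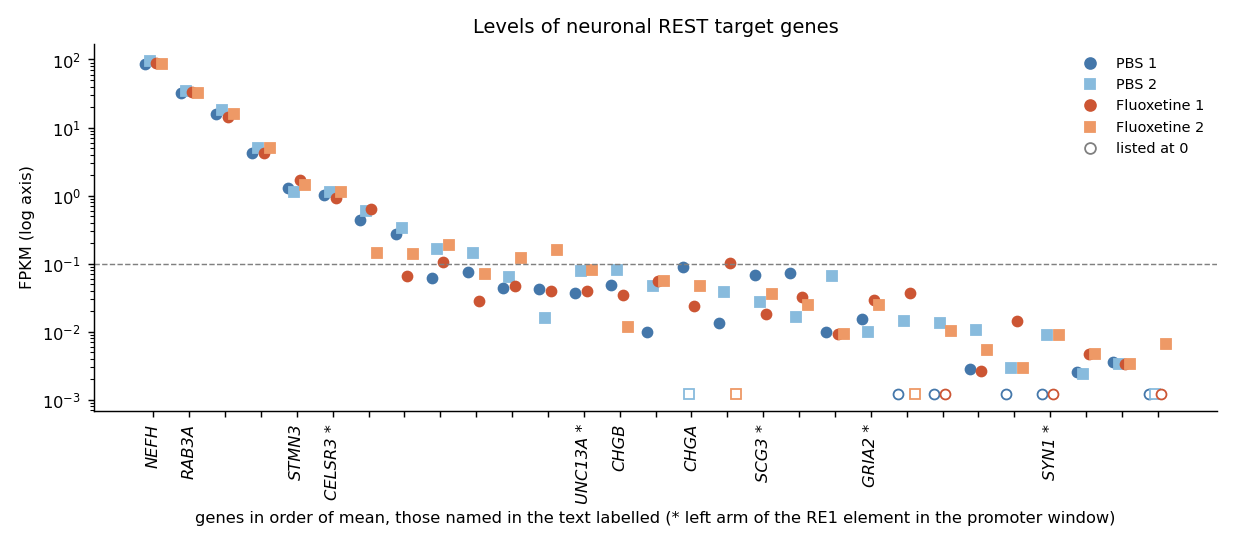
FPKM (log axis) in each library of the 29 neuronal REST target genes, in descending order of mean and labelled where named in the text, with PBS in blue, fluoxetine in orange, circles for replicate 1, squares for replicate 2 and open symbols for libraries listed at 0. An asterisk marks the 5 genes with the left arm of RE1 in a promoter window, and the dashed line is 0.1 FPKM, below which 20 genes have their mean.

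Of 33 other neural or tissue-restricted splicing and RNA-binding factors, 27 were tested and 0 had an adjusted p under 0.05 with limma, while 4 had an unadjusted p under 0.05, as did 1078 of all 12663 genes tested. With limma voom, the count was 0 for these factors as for the corepressors and the targets. Their median log2 fold change was -0.11, 22 were below 0, and 12 had no overlap with fluoxetine lower and 0 with fluoxetine higher, beside 24.8% and 16.7% of all genes tested. The muscleblind proteins, which act on splicing as cells mature, gave the largest estimates without overlap among those with a mean of at least 1 FPKM. MBNL2 averaged 5.66 ± 0.377 FPKM under PBS and 4.55 ± 0.385 FPKM under fluoxetine, for a log2 fold change of -0.31 (adjusted p = 0.520 from limma). MBNL3 and MBNL1 had log2 fold changes of -0.25 (adjusted p = 0.536) and -0.23 (adjusted p = 0.478). MBNL1, MBNL2 and MBNL3 each had their lowest value in fluoxetine replicate 1, the library with lower values in longer genes. With the length trend removed, 0 of the 27 had an adjusted p under 0.05 with limma. The estimates of single factors from that run are not given here. Whether gene length bears on the estimates of these factors was not tested. The most abundant factors were RBM38, at 240.4 ± 4.57 and 236 ± 3.03 FPKM, and KHDRBS1 (Sam68), at 144 ± 6.99 and 145 ± 3.51 FPKM, and both overlapped between the groups.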

How the data were processed

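The authors deposited 1 table of FPKM, with 1 column per library and no pooled replicates. The submitters' processing notes name fastp, HISAT2, HTSeq and GRCh38, without versions or roles, and the gene annotation and the strand setting are not given in the sources used here. The labels name a stranded TruSeq kit and the methods a VAHTS kit. The differential expression of the study used DESeq2 and was not used here.

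Libraries were grouped by their treatment labels. FPKM are not counts, so limma 3.58.1 in R 4.3.3 (eBayes with a variance trend, Benjamini-Hochberg over all genes) was run on FPKM after adding 0.1 and taking log2, for 12663 genes whose mean was at least 0.1 FPKM. Fold changes on this scale understate those of low genes. Reads were solved as the smallest whole numbers, within 0.004, that give whole gene lengths at a shared depth. This succeeded for 16080 of 16080 genes above 0, but true reads can be multiples of these. The depth was set by 4426 genes with few reads, of which 94.2% gave whole lengths. Solving and testing were checked on simulated data. Tables and figures used Python 3.11.15 with scipy 1.17.1, matplotlib 3.10.9, pandas 2.3.3 and numpy 2.4.6. Locations are from GENCODE 29 and promoters from RefSeq (GRCh38.p14).

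The 10 genes and the lists were chosen with earlier results of these data known. Named from the lists were the 3 genes with the largest change among those without overlap at a mean of at least 1 FPKM, and the 2 with the highest mean. Paralogues, the RE1 letters and the targets holding them were chosen after values were seen. Alternatives were other pseudocounts (1 and 0.01), filters (none, or a mean of at least 1 FPKM), scalings (TPM, quantile, median), variance models, the replicate block, each library left out, limma voom on solved reads (at least 10 in all) and removal of the gene length trend (lowess, span 0.3). CALB1 was listed but not analysed here, and values of some listed genes are not reported here.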

Additional observations from a re-analysis of the deposited data

How the results depend on the processing

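Among the 10 genes, 0 reached an adjusted p under 0.05 with limma in any alternative run that kept the 4 libraries. The counts of the 3 other lists were also 0. TPM and limma voom tested 7 of the 10 genes, the run with no filter all 10, and the other runs 5. The run with no filter called 0 of all 16376 genes. All 60 values of the 5 tested genes under alternatives that kept the 4 libraries stayed below 0, from -0.20 for RBFOX2 with TPM to -0.01 for RCOR1 with the length trend removed. Filters, variance models and the replicate block return the main estimate by construction, so their values could not differ in sign. Only the other pseudocounts, the scalings, limma voom and removal of the length trend could move it. With 1 library left out, and the lone library of a group taken to vary like the others, 3 of 20 values turned positive, and the ranges were -0.30 to 0.059 for REST, -0.14 to 0.025 for RCOR1 and -0.20 to 0.042 for PTBP2. For the genes near 0, 9 of 42 values moved by more than the spread between replicates.

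Over all genes, 30 were called, against 64 with the replicate block, 57 with limma voom, 16 with quantile normalization, 0 with no filter, 0 without the variance trend and 2 to 12 with 1 library left out. The cause was not tested, except that leaving out a library leaves fewer samples. Same-numbered libraries share only a number in the labels, with a correlation of 0.035 between their deviations. The replicate block changed no call among the 5 tested genes. Depth limits SRRM3, SRRM4 and ELAVL4, at 0 to 4 reads per library.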

Other observations

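The epithelial splicing regulators ESRP1 and ESRP2, which promote epithelial exons, were among the better expressed factors and were singled out after their values were seen. Of the neural factors, SRRM3, SRRM4, CELF3, ELAVL3 and ELAVL4 were near 0, while others such as PTBP2 and RBFOX1 were not. ESRP1 had 56.0 and 58.0 FPKM with PBS and 50.8 and 53.6 FPKM with fluoxetine, with both fluoxetine libraries lower. ESRP2 averaged 28.3 ± 1.01 FPKM (SD, n = 2) under PBS and 27.4 ± 1.44 FPKM (SD, n = 2) under fluoxetine, and the groups overlapped. Their log2 fold changes were -0.13 (adjusted p = 0.614 from limma) and -0.05 (adjusted p = 0.877 from limma).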
